A study of Mus musculus with 6 samples.

Results

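The genes described here are 10 regulators of G-protein signaling (RGS): Rgs2, Rgs3, Rgs4, Rgs5, Rgs10, Rgs12, Rgs16, Rgs17, Rgs19 and Rgs20. They were taken from the 24214 features counted in each of 6 RNA sequencing samples of the lines 393P_vector and 393P_ZEB1, which were made from an epithelial murine lung adenocarcinoma (LUAD) cell line, and all 10 were found by symbol. They were chosen by their counts in 393P_ZEB1 against 393P_vector, so their values in that comparison are given as a description without a test. 3 samples were stable transfectants with ectopic expression of ZEB1, a transcriptional repressor that activates the epithelial-to-mesenchymal transition (393P_ZEB1). The other 3 carried the empty vector (393P_vector). Both lines came from KP lung cancer cells of the C57BL/6 strain, were grown in RPMI-1640 with serum, and went through transfection and drug selection with puromycin or G418, so the controls share these steps. The labels do not say whether the replicates are separate transfections or cultures of 1 line, so each SD measures only the spread between these samples, which may be technical.

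A heterotrimeric G protein is switched on when an activated receptor exchanges the GDP on its alpha subunit for GTP, and it is switched off when the alpha subunit hydrolyzes that GTP. RGS proteins bind active alpha subunits and speed up the hydrolysis, which shortens signaling from the receptor. The members fall into 3 subfamilies. The R4 subfamily (Rgs2, Rgs3, Rgs4, Rgs5, Rgs16) acts on alpha subunits of the Gi/o and Gq classes, with Rgs2 best known for Gq. The R12 subfamily is represented by Rgs10, a small protein, and Rgs12, a large scaffold with further domains. The RZ subfamily (Rgs17, Rgs19, Rgs20) carries a cysteine-rich string near the amino terminus and acts mainly on the Gi/o class.

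The sequences at the start of 3 members are shown first, because these members stand for the results below. Rgs4 had the largest increase, Rgs3 the largest decrease, and Rgs17 was 1 of the RZ members that were several-fold higher in 393P_ZEB1. Each window is from RefSeq on GRCm38.p6, runs 5′ to 3′ on the strand of the gene, and covers 250 bases before the start and 50 bases after it. Capitals mark CANNTG, the general E-box.
Rgs4, chr1:169747593-169747892, minus strand: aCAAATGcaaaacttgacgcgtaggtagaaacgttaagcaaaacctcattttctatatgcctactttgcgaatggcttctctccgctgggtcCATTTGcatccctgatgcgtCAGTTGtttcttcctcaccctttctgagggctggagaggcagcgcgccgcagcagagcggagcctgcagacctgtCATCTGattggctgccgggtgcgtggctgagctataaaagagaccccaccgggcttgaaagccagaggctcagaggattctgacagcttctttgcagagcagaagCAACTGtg
Rgs17, chr10:5922351-5922650, minus strand: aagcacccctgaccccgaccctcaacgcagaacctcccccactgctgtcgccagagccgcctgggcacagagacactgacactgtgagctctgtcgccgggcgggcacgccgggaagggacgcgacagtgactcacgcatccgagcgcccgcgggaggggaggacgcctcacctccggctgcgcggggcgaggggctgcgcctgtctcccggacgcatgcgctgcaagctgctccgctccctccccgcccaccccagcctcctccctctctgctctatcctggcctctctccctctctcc
Rgs3, chr4:62559597-62559896, plus strand: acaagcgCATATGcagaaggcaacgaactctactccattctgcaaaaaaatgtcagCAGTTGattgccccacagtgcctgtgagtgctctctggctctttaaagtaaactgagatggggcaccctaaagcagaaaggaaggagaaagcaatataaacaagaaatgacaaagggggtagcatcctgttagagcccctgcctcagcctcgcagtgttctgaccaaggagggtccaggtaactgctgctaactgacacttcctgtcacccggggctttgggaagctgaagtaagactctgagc
The Rgs4 window held 5 matches to CANNTG and the Rgs3 window shown held 2, whereas the Rgs17 window and the second Rgs3 window, at the start of another transcript, held 0. RefSeq gave 13 such windows for 9 of the 10 members, and Rgs20 was without one. Neither CACCTG nor CAGGTG, which are 1 motif read on both strands and the E-box form that ZEB1 is known to bind, occurred in any of the 13 windows. Over all 32851 windows of the same length, 20.2% held it. CANNTG, which includes these forms, was found in 7 of the 13 windows (53.8%) and in 72.3% of all windows. The windows also differed in CpG content. Rgs17 had 27 CpG, more than 84.5% of all windows, Rgs4 had 13 and the Rgs3 windows had 4 and 9, while the median was 22 for the 13 windows and 7 for all. A match is only a string of letters in this window, and the files measure no binding of ZEB1.

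Total counts were between 54442450 and 79158012 per sample, and 13892 features passed the filter on low counts. Zeb1 itself was measured at 21.5 ± 0.435 CPM (counts scaled by library size with TMM; SD, n = 3) in 393P_vector and 51.7 ± 3.01 CPM in 393P_ZEB1. 393P_vector replicate 3 stood apart. It differed at least 2-fold from the other vector replicates at 5.0% and 5.51% of genes, against 0.0648% between replicates 1 and 2, so the members' log2 fold changes are also given without it. Reads from chromosome Y were 99.3 to 137 CPM of the unscaled total in 393P_vector and 1.19 to 1.49 CPM in 393P_ZEB1, and the median log2 fold change was -0.43 on chromosome 17 and 0.64 on chromosome 18. On the 6 chromosomes that carry the members it lay between -0.30 (chromosome 10) and 0.07 (chromosome 5). Markers of cell types were counted as higher or lower at an edgeR adjusted p below 0.05, which 18.3% and 19.3% of all tested genes passed. Of 9 epithelial markers, 8 were lower in 393P_ZEB1 and 0 were higher, and all 7 mesenchymal markers were higher. The 7 include Zeb1, which was expressed ectopically, so its increase was set by the design. The lung epithelial genes Nkx2-1, Sftpc, Sftpb, Sftpa1, Scgb1a1 and Hopx stayed at or under 0.0602 CPM in every sample. The other 2 of the 8 lung epithelial markers were lower in 393P_ZEB1, Aqp5 at 7.46 and 1.84 CPM and Foxj1 at 2.79 and 0.186 CPM, and the summed level of the list was 9.59 to 11.1 CPM against 1.53 to 2.66 CPM. Of 8 leukocyte markers, 1 was higher (Cd14, 17.04 and 58.0 CPM) and 1 was lower, and the summed level was 20.4 to 21.7 CPM in 393P_vector and 58.4 to 61.5 CPM in 393P_ZEB1. Ptprc, which defines leukocytes, stayed at or under 0.373 CPM and Lyz2 at or under 0.0187 CPM. Of 8 pericyte and smooth muscle markers, 1 was higher and 3 were lower, and the sum was 10.3 to 12.1 CPM against 3.01 to 4.09 CPM, with Kcnj8 at or under 0.0510 CPM. Of 6 endothelial markers 1 was lower, with a sum of 2.86 to 3.16 CPM against 0.846 to 1.40 CPM, and of 4 platelet markers 1 was lower (Ppbp), with a sum of 8.87 to 20.9 CPM against 2.23 to 2.57 CPM and Pf4 and Gp9 at or near 0. The part of these differences in the RGS values was not tested.

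The 10 members split in both directions. Rgs4, Rgs20, Rgs17 and Rgs10 were higher in 393P_ZEB1, and Rgs3, Rgs2, Rgs16 and Rgs12 were lower, each without overlap between the 3 samples of each group. Over all tested genes, 26.3% were apart with 393P_ZEB1 higher and 26.5% with 393P_ZEB1 lower. Rgs19 overlapped between the lines, and Rgs5 was at background. 9 members passed the filter on low counts. 4 lay past the threshold as higher and 4 as lower (edgeR, adjusted p below 0.05), beside 37.6% of all 13892 tested genes, 18.3% higher and 19.3% lower. Because this contrast chose the members, nothing is read from these counts. 7 of the 9 tested members differed at least 2-fold, beside 18.6% of all tested genes. The log2 fold changes ran from -3.15 to 3.89. The members nearest to the threshold were Rgs12 inside it, at -0.65, and Rgs19 outside it, at -0.10.

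**Figure D1:**
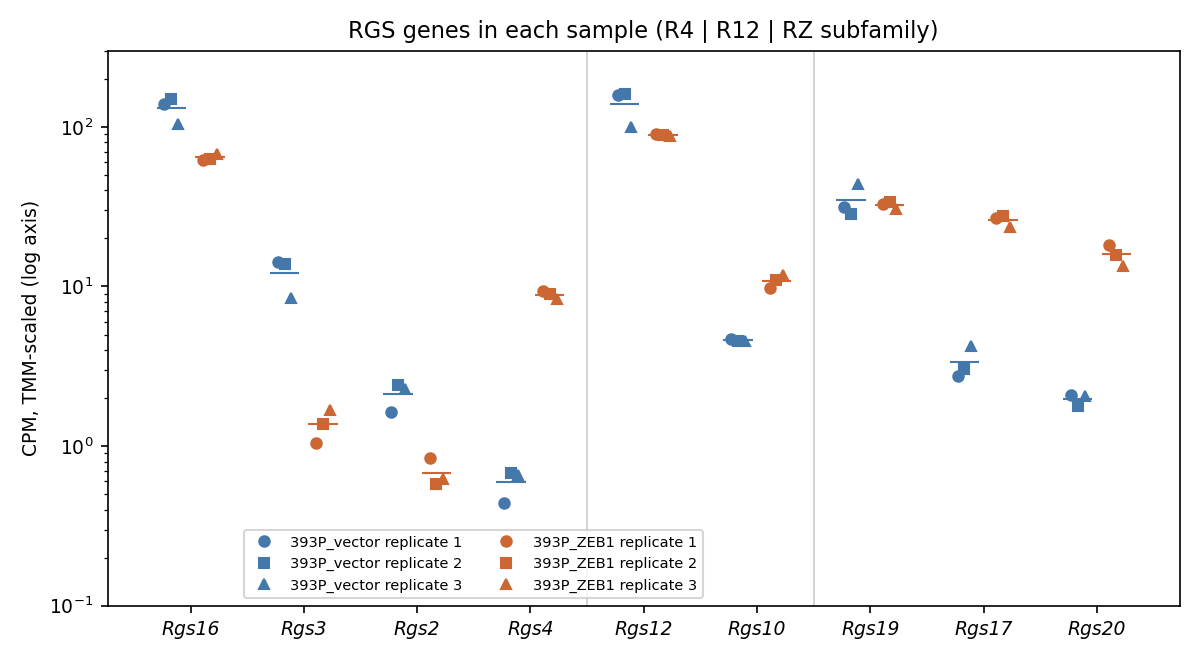
Each point is 1 sample of 393P_vector (blue) or 393P_ZEB1 (orange), with replicates 1, 2 and 3 as circles, squares and triangles. The vertical log axis gives TMM-scaled CPM, short bars are group means, and Rgs5 is left out because 1 sample had 0 counts. Rgs4, Rgs10, Rgs17 and Rgs20 lie apart and higher in 393P_ZEB1, Rgs2, Rgs3, Rgs12 and Rgs16 lie apart and lower, and Rgs19 overlaps.

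Among the R4 members, Rgs4, which dampens Gi/o and Gq signaling, showed the largest change of all. It was measured at 0.442, 0.680 and 0.662 CPM in 393P_vector replicates 1 to 3 and at 9.31, 8.98 and 8.34 CPM in 393P_ZEB1 replicates 1 to 3. The means were 0.595 ± 0.133 and 8.88 ± 0.494 CPM (SD, n = 3). All 3 samples with ZEB1 were far above all 3 with the vector, at a fitted 14.8-fold difference (log2 fold change 3.89 ± 0.21, SE). It was 3.97 without 393P_vector replicate 3. The number of its 5 exons with more than 10 reads, which follows the count, was 1 in each vector sample and 4 or 5 in 393P_ZEB1. The gene lies on chromosome 1 at 169741477 to 169747642 of GRCm38, on the minus strand.

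Rgs3, a multi-isoform R4 gene whose products act on Gi/o and Gq, moved the other way. Its levels were 14.3, 13.9 and 8.46 CPM with the vector and 1.05, 1.37 and 1.69 CPM with ZEB1. The lowest vector sample, replicate 3, was still above every 393P_ZEB1 sample, and the fitted level was 8.89-fold lower in 393P_ZEB1 (log2 fold change -3.15 ± 0.28). Without 393P_vector replicate 3 it was -3.36. Of its 27 exons, 15 to 17 had more than 10 reads in 393P_vector and 1 or 2 did in 393P_ZEB1. It lies on chromosome 4 from 62559847 to 62703019 on the plus strand.

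Rgs16, an R4 protein known to be induced by receptor signaling, was the most abundant RGS transcript per length in both lines. It stood at 139, 151 and 105 CPM in 393P_vector and 62.4, 63.1 and 67.4 CPM in 393P_ZEB1. The vector samples spread more, with replicate 3 lowest, and the groups did not overlap. The difference was 2.04-fold (log2 fold change -1.03 ± 0.15), and -1.17 without 393P_vector replicate 3. All 5 exons had more than 10 reads in every sample. Rgs16 (chromosome 1, 153740353 to 153745468, plus strand) shares 236 exonic bases with the antisense gene Gm28513 in GENCODE M21. Whether strand was used in counting is not given in the sources used here, so reads of the pair cannot be told apart.

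Rgs2, the member best known for limiting Gq, was low in both lines. It was measured at 1.63, 2.43 and 2.29 CPM in 393P_vector and at 0.841, 0.576 and 0.622 CPM in 393P_ZEB1, from 32 to 190 counts per sample. Each sample with ZEB1 was below each sample with the vector, by 3.11-fold (log2 fold change -1.64 ± 0.25). Without 393P_vector replicate 3 the value was -1.58. Rgs2 lies on chromosome 1 at 143999338 to 144004149, minus strand.

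Rgs5, an R4 member used as a pericyte marker, was close to undetected. It had 3, 1 and 3 counts in 393P_vector and 0, 1 and 1 counts in 393P_ZEB1. Summed over the samples this was 7 counts, or 0.0353 CPM (95% exact Poisson interval 0.0142 to 0.0727), against 2 counts, or 0.0118 CPM (0.00142 to 0.0425). The intervals cover counting error only. No sample exceeded 3 counts, the level treated here as the limit of detection (0.0361 to 0.0561 CPM), so no fold is given, and a difference was not detectable at this depth. Rgs5 (chromosome 1, 169655501 to 169693526, plus strand) lies 47950 bp from Rgs4, on the opposite strand. It stayed at background where Rgs4 was high.

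The RZ members differed among themselves. Rgs17, also called RGSZ2, was at 2.76, 3.06 and 4.21 CPM in 393P_vector and 26.9, 27.8 and 23.5 CPM in 393P_ZEB1. Replicate 3 was the highest vector sample, and it was well under every sample with ZEB1. The fitted difference was 7.76-fold (log2 fold change 2.96 ± 0.19), and 3.16 without 393P_vector replicate 3. Of its 6 exons, 2 or 3 had more than 10 reads in 393P_vector and 4 or 5 did in 393P_ZEB1. Rgs17 lies on chromosome 10 from 5825664 to 5922400, minus strand, and was 3.25 above the median log2 fold change of that chromosome.

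Rgs20, also called RGSZ1, was close to Rgs17 in its difference. Its 393P_vector samples were at 2.10, 1.78 and 2.06 CPM and its 393P_ZEB1 samples at 18.3, 15.8 and 13.5 CPM. The groups were well apart although the ZEB1 samples spread (15.9 ± 2.40 CPM, SD, n = 3), with an 8.0-fold difference (log2 fold change 3.00 ± 0.17; 3.03 without 393P_vector replicate 3). The number of its 7 exons with more than 10 reads was 2 or 3 in 393P_vector and 5 in each 393P_ZEB1 sample. Rgs20 lies on chromosome 1 from 4909576 to 5070285, minus strand. In GENCODE M21 it shares 127 exonic bases with Atp6v1h and 125 with the pseudogene Gm17101, both on the opposite strand. In the deposited coordinates Atp6v1h starts 12888 bp past the end of Rgs20, so the intervals of these 2 features did not overlap there. Atp6v1h, a subunit of the vacuolar proton pump, was at 48.7 ± 10.9 and 37.8 ± 3.54 CPM.

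Rgs19, also called GAIP, had the highest RPKM of the RZ members in both lines. Its levels were 31.3, 28.5 and 44.1 CPM in 393P_vector and 32.7, 33.7 and 30.7 CPM in 393P_ZEB1. The ZEB1 samples lay inside the range of the vector samples. The log2 fold change was -0.10 ± 0.17, and it turned to 0.11 without 393P_vector replicate 3, which was 1.47 times the mean of the other vector samples. Its gene is on chromosome 2 (181688423 to 181693924, minus strand).

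The R12 members moved in opposite directions. Rgs10, a small protein that acts on Gi/o subunits, was tight in 393P_vector at 4.72, 4.54 and 4.53 CPM and stood at 9.83, 10.9 and 11.7 CPM in 393P_ZEB1. The groups were far apart for their spread, by 2.36-fold (log2 fold change 1.24 ± 0.14; 1.23 without 393P_vector replicate 3). Rgs12, the scaffold with PDZ, PTB and GoLoco domains, was at 158, 161 and 99.4 CPM in 393P_vector and 89.7, 89.4 and 87.7 CPM in 393P_ZEB1. Here 393P_vector replicate 3 lay much nearer to the ZEB1 samples than to the other vector samples. The difference was 1.57-fold lower (log2 fold change -0.65 ± 0.18) and widened to -0.84 without that replicate. Rgs12 (chromosome 5, 34949448 to 35033593, plus strand) shares 467 exonic bases with the antisense gene Gm43791, and its interval overlaps that of Mir3097. Rgs10 is on chromosome 7 from 128373625 to 128418172, minus strand.

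**Figure D2:**
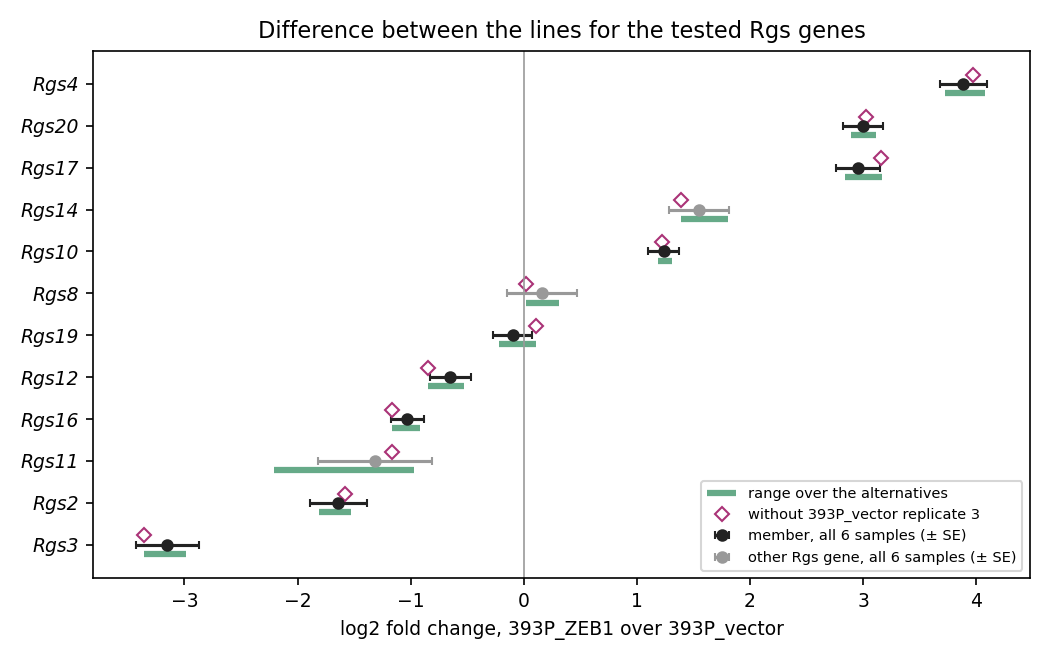
Circles give the fitted log2 fold change of 393P_ZEB1 over 393P_vector with SE bars for 9 members (black) and 3 other tested Rgs genes (grey). Diamonds give the value without 393P_vector replicate 3, and green bars the range over 13 alternative fits (12 for Rgs11, which failed the filter of at least 10 counts in every sample). Rgs19 is the only member whose range crosses 0, from -0.22 to 0.11, and Rgs4 stays between 3.73 and 4.08.

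Levels of different genes were compared per length, as RPKM, the reads scaled by the length of the exons and the total of the sample. In 393P_vector the order was Rgs16 (56.8 ± 8.43), Rgs12 (25.1 ± 5.49), Rgs19 (24.3 ± 6.80), Rgs10 (5.34 ± 0.165), Rgs3 (1.69 ± 0.396), Rgs20 (0.897 ± 0.0945), Rgs2 (0.710 ± 0.156), Rgs17 (0.413 ± 0.112), Rgs4 (0.207 ± 0.0493) and Rgs5 (0.02 ± 0.01 RPKM; SD, n = 3). Rgs12 and Rgs19 did not differ beyond their spread, and their order turned in 393P_vector replicate 3, at 18.8 and 32.1 RPKM against 27.9 and 21.3 in replicate 1 and 28.7 and 19.5 in replicate 2, and the samples of Rgs20 and Rgs2 overlapped. In 393P_ZEB1 the first 6 places went to Rgs16 (27.7 ± 1.26), Rgs19 (22.4 ± 1.15), Rgs12 (16.0 ± 0.240), Rgs10 (12.5 ± 1.18), Rgs20 (7.13 ± 1.03) and Rgs17 (3.20 ± 0.290 RPKM). Rgs4 followed at 3.03 ± 0.159 RPKM, which did not differ from Rgs17 beyond the spread, and Rgs2 (0.227 ± 0.0473) and Rgs3 (0.187 ± 0.0451 RPKM) lay below it and close to each other. Rgs3 thus went from the fifth place to the ninth among the members.

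Summed over all 21 Rgs-named genes in the files, the level was 117 ± 7.24 RPKM in 393P_vector and 95.6 ± 2.08 RPKM in 393P_ZEB1, and the 10 members held 95.9% to 99.0% of it in every sample. Rgs16 held 48.4% of it in 393P_vector and 29.0% in 393P_ZEB1. The shares of Rgs10 (4.59% and 13.1%), Rgs20 (0.772% and 7.47%), Rgs17 (0.358% and 3.34%) and Rgs4 (0.178% and 3.17%) went the other way. By subfamily, the R4 share went from 50.7 ± 4.44% to 32.7 ± 1.03% and the RZ share from 22.2 ± 7.53% to 34.2 ± 2.37%. The R12 share went from 26.8 ± 3.27% to 32.9 ± 1.5%, and R7 was 0.230% and 0.178%. The summed level of R12 had the same mean in both lines, at 31.5 ± 5.53 and 31.5 ± 1.89 RPKM. That equality rests on 393P_vector replicate 3. The vector samples were at 34.18, 35.19 and 25.15 RPKM in replicates 1 to 3. The ZEB1 samples were at 29.35, 32.1 and 32.97 RPKM, each below vector replicates 1 and 2. R4 went from 59.5 ± 8.75 to 31.2 ± 1.11 RPKM, without overlap. The mean of RZ went from 25.6 ± 6.98 to 32.7 ± 2.16 RPKM, but its samples overlapped. 393P_vector replicate 3, at 33.59 RPKM, was above 393P_ZEB1 replicate 3, at 30.23 RPKM. The RZ share in 393P_vector was 19.1%, 16.8% and 30.8% in replicates 1 to 3, and replicate 3 lay near the lowest 393P_ZEB1 sample, at 31.5%. Within RZ, Rgs17 was 0.0155 to 0.0190 of the Rgs19 level in 393P_vector and 0.135 to 0.146 of it in 393P_ZEB1. The ratio of Rgs20 to Rgs17 overlapped between the lines, at 1.80 to 2.82 and 2.08 to 2.49. Within R4, Rgs4 stayed a small part of the Rgs16 level, at 0.00256 to 0.00505 and 0.0980 to 0.118. In bulk samples, fewer cells with a transcript and less of it per cell cannot be told apart.

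**Figure D3:**
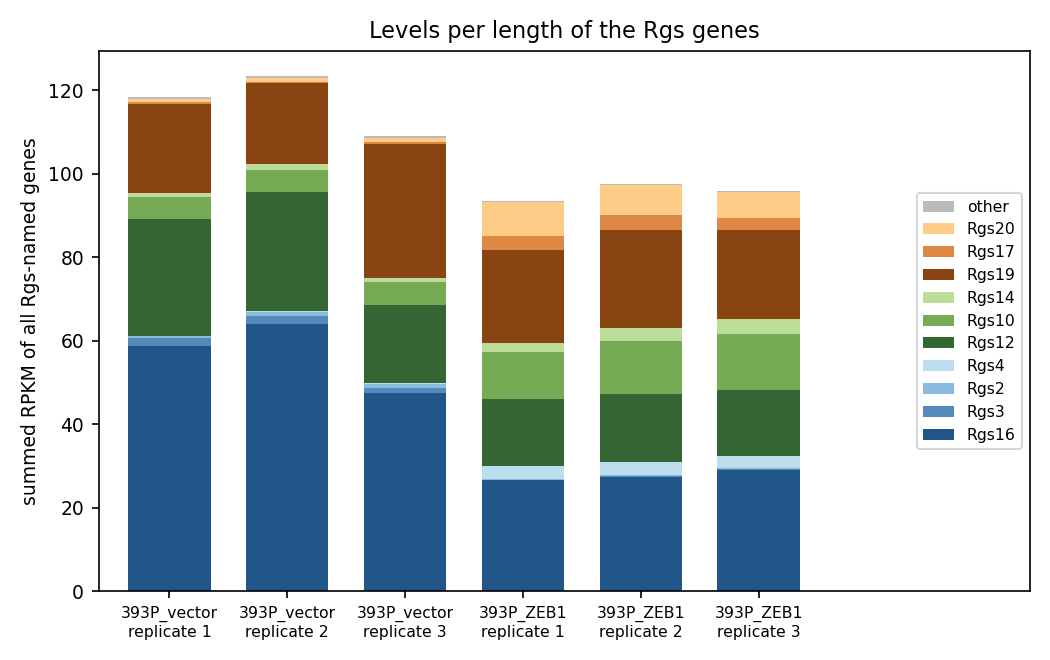
Stacked bars show, for each sample, the RPKM of the Rgs genes. The R4 members other than Rgs5 are in blue, R12 in green and RZ in brown and orange. All remaining Rgs genes, Rgs5 among them, are in grey. The vertical axis is the summed RPKM from 0. Rgs16 is the largest block in every sample and falls from 48.4% to 29.0% of the sum on average, while Rgs10, Rgs20, Rgs17 and Rgs4 take larger blocks in 393P_ZEB1.

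Of the 21 Rgs-named genes, 11 lie on chromosome 1, 5 of them members. The Rgs genes outside the members that lie next to a member were low, and of these only Rgs8 passed the filter on low counts. Near Rgs2, the genes Rgs13, Rgs1 and Rgs18, which lie 134517, 240519 and 748691 bp away, were at or under 0.0293 CPM on average in either line. Near Rgs16, Rgs8 (42687 bp) was at 0.207 and 0.228 CPM and Rgsl1 (33918 bp) at 0.0644 and 0.0182 CPM. Of the 11 Rgs-named genes outside the members, 10 were under 1 CPM in every sample. The exception was Rgs14, the third R12 gene, which has an RGS domain, a Ras-binding region and a GoLoco motif. It was at 2.14, 3.13 and 1.83 CPM in 393P_vector and 5.16, 7.09 and 8.45 CPM in 393P_ZEB1, and it rose by a log2 fold change of 1.55 ± 0.27 (edgeR adjusted p = 0.00312; adjusted p 0.000818 to 0.0156 when any 1 sample was left out).

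The pattern over the 6 samples was also compared with that of all 11794 genes of at least 1 CPM on average, by the root mean square distance of centred log2 values. The genes nearest to Rgs4 were Hdac9, a class IIa histone deacetylase (distance 0.0933), Parp8 (0.109) and the protocadherin Pcdh7 (0.121). Their log2 fold changes were 4.18, 3.01 and 3.04. The genes nearest to Rgs3 were the synaptotagmin Syt8 (0.118), the matrix protein gene Fbln2 (0.125) and Tmie (0.126), at -5.27, -2.93 and -3.17. Rgs4 and Rgs3 themselves had log2 fold changes of 3.89 and -3.15. The distance used a pseudocount of 0.5 CPM, which narrows differences at low levels. Rgs4 averaged 0.595 CPM with the vector, and Syt8 averaged 3.68 CPM with the vector and 0.0908 CPM with ZEB1. A small distance therefore need not mean an equal fold change. The 6 samples hold 1 contrast, and the distance is a description only.

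Of 23 other RGS-domain and RGS anchor genes, 22 were in the files and 13 were tested. Of these, 4 were higher in 393P_ZEB1 and 1 was lower, beside 37.6% of all genes called in either direction, and their median log2 fold change was 0.16 against -0.02 over all tested genes. Besides Rgs14, Akap10, an anchor of protein kinase A, rose from 40.0 ± 2.46 to 59.0 ± 1.69 CPM (log2 fold change 0.56 ± 0.10, edgeR adjusted p = 0.00395). Snx13, a sorting nexin of endosomes, fell from 56.7 ± 6.88 to 35.4 ± 3.09 CPM (-0.68 ± 0.13, edgeR adjusted p = 0.00499). Arhgef12, a RhoGEF activated by Gα12/13, went from 193 ± 26.7 to 265 ± 7.91 CPM (0.46 ± 0.12, edgeR adjusted p = 0.0221), and lost its call without any 1 of the ZEB1 replicates (adjusted p 0.0581 to 0.0727). Snx25 (0.51 ± 0.15, edgeR adjusted p = 0.0274) lost it without 393P_vector replicate 1 (0.0595), 393P_ZEB1 replicate 1 (0.0932) or 393P_ZEB1 replicate 3 (0.0587). The related RhoGEF Arhgef1 was at 151, 133 and 36.6 CPM in 393P_vector and 58.3, 62.2 and 43.6 CPM in 393P_ZEB1. It passed no threshold with all samples (-0.96, edgeR adjusted p = 0.137) and did so without 393P_vector replicate 3 (-1.37, edgeR adjusted p = 4.09e-05), while the list held 3 calls without 393P_ZEB1 replicate 1.

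The substrates of the RGS proteins are the G-protein alpha subunits. Of 33 subunit genes, 26 were tested, 3 were higher and 5 were lower, beside 18.3% and 19.3% of all tested genes, with a median log2 fold change of -0.03. Gnas, which stimulates adenylyl cyclase, gave no call and was at 912 ± 133 and 917 ± 21.8 CPM (log2 fold change 0.01, edgeR adjusted p = 0.967), and its sign turned without 393P_vector replicate 1 (-0.06) or 2 (-0.03). Nor did Gnai2, an inhibitory subunit, at 428 ± 18.8 and 382 ± 43.9 CPM (-0.16, edgeR adjusted p = 0.302), and Gna13, at 149 ± 7.73 and 179 ± 8.96 CPM (0.26, edgeR adjusted p = 0.0665). Gnai1, of the same class as Gnai2, rose from 17.6, 13.3 and 17.3 CPM to 70.2, 51.4 and 53.5 CPM (log2 fold change 1.86 ± 0.18, edgeR adjusted p = 0.000136). Gna11, 1 of the broadly expressed Gq-class subunits, fell from 102, 101 and 90.7 CPM to 18.9, 22.2 and 19.6 CPM (-2.27 ± 0.12, edgeR adjusted p = 5.61e-06). Its partner Gnaq was at 91.2 ± 20.3 and 111 ± 4.01 CPM and gave no call (0.28, edgeR adjusted p = 0.204), but gave one without 393P_vector replicate 3 (0.47, edgeR adjusted p = 0.000756). So did Gna13 (0.27, edgeR adjusted p = 0.0171), and the count of called subunits then became 13.

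Gnao1, a Go subunit, fell from 1.53 ± 0.498 to 0.480 ± 0.137 CPM (-1.67 ± 0.33, edgeR adjusted p = 0.00581). Gna15, a Gq-class subunit of blood cells, had 11, 16 and 15 counts in 393P_vector and 1, 4 and 1 counts in 393P_ZEB1 (-2.53 ± 0.56, edgeR adjusted p = 0.00978). Gnat2, a transducin, at 2.06 ± 0.295 and 1.30 ± 0.225 CPM (-0.66 ± 0.22, edgeR adjusted p = 0.0441), lost its call whichever sample was left out (adjusted p 0.0594 to 0.133). Among beta and gamma subunits, Gnb4 rose from 40.0 ± 3.82 to 85.7 ± 1.37 CPM (1.10 ± 0.11, edgeR adjusted p = 0.00017). Gng4 had 2, 1 and 11 counts in 393P_vector and 102, 119 and 104 counts in 393P_ZEB1 (edgeR adjusted p = 0.000201), and Gng11 had 63, 77 and 85 counts against 2, 1 and 1 (edgeR adjusted p = 2.21e-05). The fitted log2 fold changes of Gng4 and Gng11, 4.77 and -5.49, and that of Gna15 rest on counts near the limit of detection in 1 line. Gng4 was at 6.09 without 393P_vector replicate 3, and Gna15 at -3.46 without 393P_ZEB1 replicate 2.

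Receptor kinases (GRKs) and arrestins end signaling at the receptor rather than at the G protein. Of 10 such genes, 8 were tested, 2 were higher and 3 were lower, beside the same shares of all tested genes. Arrb1, β-arrestin-1, rose from 13.3 ± 2.63 to 27.0 ± 0.384 CPM (log2 fold change 1.02 ± 0.16, edgeR adjusted p = 0.00207). Grk5, a widely expressed kinase, fell from 3.79 ± 0.712 to 1.39 ± 0.119 CPM (-1.44 ± 0.21, edgeR adjusted p = 0.0012). Sag, the visual arrestin, fell from 0.769 ± 0.0246 to 0.219 ± 0.0913 CPM (-1.81 ± 0.32, edgeR adjusted p = 0.00328). Arrb2, β-arrestin-2, at 34.9 ± 2.40 and 45.1 ± 1.5 CPM (0.37 ± 0.11, edgeR adjusted p = 0.0272), lost its call without 393P_vector replicate 1 or any 1 ZEB1 replicate (adjusted p 0.0631 to 0.104). Grk4 (-0.96 ± 0.30, edgeR adjusted p = 0.038) lost it in every such fit but the one without 393P_vector replicate 1 (adjusted p 0.0532 to 0.131). With any 1 ZEB1 replicate left out, the list held 3 calls.

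Downstream of the alpha subunits, 14 of 19 effector and modulator genes were tested, 4 were higher and 3 were lower, again beside 18.3% and 19.3%. Plcb1, the phospholipase C driven by Gq, rose from 1.36, 1.31 and 1.54 CPM to 25.7, 23.3 and 22.2 CPM (log2 fold change 4.07 ± 0.15, edgeR adjusted p = 1.47e-06). Of its 33 exons, 1 had more than 10 reads in each 393P_vector sample and 27 to 29 did in 393P_ZEB1. Among adenylyl cyclases, which make cyclic AMP, Adcy7 rose from 2.44 ± 0.223 to 25.4 ± 1.44 CPM (3.38 ± 0.14, edgeR adjusted p = 2.23e-06) and Adcy9 from 11.9 ± 2.54 to 33.2 ± 1.68 CPM (1.48 ± 0.18, edgeR adjusted p = 0.00045). Adcy8 fell, from 39, 48 and 65 counts to 1, 3 and 10 (-3.20 ± 0.51, edgeR adjusted p = 0.00205), and was at -4.30 without 393P_ZEB1 replicate 3. Adcy3 (0.79 ± 0.19, edgeR adjusted p = 0.0145) lost its call without 393P_ZEB1 replicate 2 (0.0529) or 3 (0.0519). Gpsm1 and Gpsm3, GoLoco proteins that bind inactive Gi alpha subunits, were lower by -0.53 and -0.64 (edgeR adjusted p = 0.0341 and 0.0357), and each lost its call in 5 of the 6 fits that left out 1 sample, all but the one without 393P_vector replicate 3 (adjusted p up to 0.118 and 0.134). The number of calls in the list was 4 without 393P_ZEB1 replicate 2 or 3.

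A further list held 68 receptor genes for ligands known to act through Gi/o, Gq or G12/13. It was drawn up by ligand, so a receptor in it need not itself couple to these classes. Of the 68, 26 were tested, 13 were higher and 6 were lower, beside 18.3% and 19.3% of all tested genes. Their median log2 fold change was 0.53. The 5 largest increases were P2ry1, a Gq-coupled ADP receptor (4.78 ± 0.33, edgeR adjusted p = 2.41e-05, from 4 to 17 counts in 393P_vector and 202 to 242 in 393P_ZEB1), Lpar4 (3.45 ± 0.36), Lpar3 (2.98 ± 0.56, and 4.05 without 393P_vector replicate 3), the adenosine receptor Adora2a (2.94 ± 0.16) and the muscarinic receptor Chrm4 (2.54 ± 0.20), with edgeR adjusted p of at most 0.00479 (Lpar3). Of 5 tested lysophosphatidic acid receptors, 4 were higher, Lpar1 (70.1 ± 4.30 to 109 ± 7.56 CPM) and Lpar2 (20.3 ± 1.89 to 32.0 ± 2.16 CPM) among them (edgeR adjusted p = 0.0024 and 0.00424). The fifth, Lpar6, had a log2 fold change of -0.54 that gave no call (8.30 ± 2.01 and 5.72 ± 0.502 CPM, edgeR adjusted p = 0.067) and gave one without 393P_vector replicate 2 (-0.66, edgeR adjusted p = 0.0464). The 5 largest decreases were the bradykinin receptor Bdkrb2 (-4.13 ± 0.31, from 9.16 ± 2.61 to 0.520 ± 0.128 CPM), P2ry12, a Gi-coupled ADP receptor (-3.38 ± 0.62), P2ry2 (-2.75 ± 0.21), Ackr3 (listed as Cxcr7, -1.76 ± 0.22) and Adora2b (-1.27 ± 0.33), with edgeR adjusted p of at most 0.0202 (Adora2b). P2ry12 varied in 393P_vector, at 4.03, 3.35 and 11.9 CPM, and was -2.58 without replicate 3. Of these 10 genes, Adora2b alone lost its call in fits that left out 1 sample. The samples were 393P_vector replicate 2 (edgeR adjusted p = 0.0552), 393P_ZEB1 replicate 2 (0.0598) and 393P_ZEB1 replicate 3 (0.0758). Among the other called receptors, F2r lost its call in 5 of the 6 such fits and Adra1d and S1pr2 in 4 each, and the rest kept theirs.

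**Figure D4:**
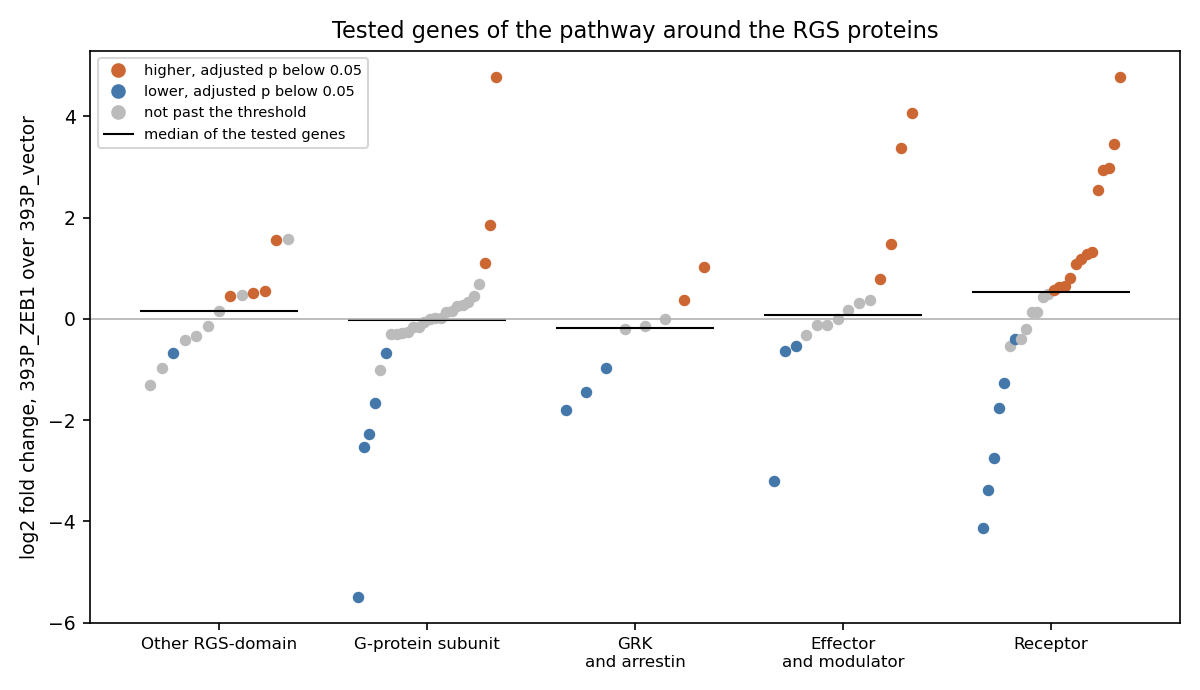
Each point is 1 tested gene of the 5 lists, ordered by its log2 fold change of 393P_ZEB1 over 393P_vector (vertical axis) within its list. Orange and blue points passed the threshold as higher and lower, grey points did not, and black lines are list medians. Over the 5 lists, 26 of 87 tested genes were higher and 18 were lower, and the receptor genes have the highest median, 0.53.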

How the data were processed

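RNA sequencing on the SOLiD platform measured total RNA of 3 samples of 393P_vector and 3 of 393P_ZEB1, grouped by the labels. Per sample, the authors deposited a raw read count and an RPKM for every feature, and the number of exons with more than 10 reads, with coordinates on GRCm38. The aligner, the counting program and any use of strand are not given in the sources used here. RPKM was used only for levels between genes. Counts were tested in R 4.3.3 with edgeR 4.0.16 (filterByExpr with a minimum count of 10, TMM, robust quasi-likelihood fit, Benjamini-Hochberg adjustment over 13892 genes, threshold 0.05), after a check on simulated data. CPM used the TMM-scaled library sizes, and nearest genes a pseudocount of 0.5 CPM. SE is the log2 fold change divided by the square root of the F statistic.

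The members and the gene lists were chosen with earlier results of these data known. All members are named, and of each list the genes past the threshold, or the 5 highest and 5 lowest where more than 8 passed. Gnai2, Gnaq, Gna11, Gnas and Gna13 are named regardless, and Zeb1 as a check. Lpar1, Lpar2, Lpar6, F2r, Adra1d, S1pr2, Arhgef1, and the genes near members were added after their values were seen. Deviations of equally numbered replicates correlated at 0.279, -0.205 and -0.0377, and those of unequally numbered ones at -0.18 to 0.22. With 3 samples a group these values cannot decide whether the numbers pair the samples, and the main fit used no pairing. Alternatives were DESeq2 1.42.0 (size factors within edgeR, and its Wald test), limma 3.58.1 with voom and sample weights, no filter, a minimum of 10 counts in all samples, a block for the replicate number, the 10 genes with most counts left out, each sample left out, and a threshold of 0.01. Gene overlaps are from GENCODE M21. Figures and summaries used Python 3.11.15, pandas 2.3.3, NumPy 2.4.6, SciPy 1.17.1 and matplotlib 3.10.9. Pairs of replicates differed beyond counting noise, so no library was counted as a duplicate.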

Additional observations from a re-analysis of the deposited data

How the results depend on the processing

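Of 117 recomputed log2 fold changes of the 9 tested members, 115 moved by less than the spread between replicates, the pooled SD of log2 CPM. The other 2 were those of Rgs4, at 3.73 without 393P_vector replicate 1 and 4.08 with limma voom. Its spread was narrowed by the pseudocount of 0.5 CPM, as Rgs4 was low in 393P_vector. Leaving out 1 of 3 samples moves a mean by only part of their SD. The fits without 1 sample could therefore hardly exceed this limit, and they do not show robustness. The sign changed for Rgs19 alone, at 0.11 without 393P_vector replicate 3 and 0.08 with limma voom. Gnas turned from 0.01 to -0.0030 with at least 10 counts in every sample, and ran from -0.0628 to 0.134 when 1 sample was left out, below 0 without 393P_vector replicate 1 or 2 (-0.0306). Another 630 values were recomputed for the called genes of the lists, Zeb1 and the alpha subunits named regardless. Of these, 56 lost and 5 gained a call, and 3, all of Gnas, reversed. Nearly all of these genes were called in the main fit, so the tally could hold few gains. Gains by the other uncalled genes of the lists are not in it. The number of genes called among all tested, 5218, became 8071 with limma voom and 3129 at a threshold of 0.01, and 3645 to 7476 when 1 sample was left out. Calls in the list of other RGS-domain genes (5) became 8 with limma voom, 3 at 0.01 and 3 to 7 without 1 sample. Those of G-protein subunits (8) became 5 with at least 10 counts in every sample, 16 with limma voom and 7 to 13 without 1 sample. GRK and arrestin calls (5) became 3 at 0.01 and 3 to 6 without 1 sample, and effector calls (7) became 4 at 0.01 and 4 to 9. Receptor calls (19) became 14 at 0.01 and 15 to 19 without 1 sample. At 0.01 fewer calls follow from the stricter threshold, and the other causes were not tested. CACCTG or CAGGTG was in 0 of 13 member windows and CANNTG in 7.

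Whether the replicate numbers pair the samples is not known. Under the replicate block 4436 genes were called, 3 of them GRK or arrestin genes, Rgs4 was at 3.90 and Rgs19 at -0.07. Depth limits Rgs5, Rgs2 and the subunits and receptors with few counts.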

Other observations

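Some genes of the pathway gave a call when 393P_vector replicate 3, the sample that stood apart, was left out, and none with it. Gnai3, a Gi subunit, was at 275, 255 and 452 CPM in 393P_vector and 312, 326 and 305 CPM in 393P_ZEB1, and its log2 fold change went from -0.06 (edgeR adjusted p = 0.853) to 0.25 (edgeR adjusted p = 0.0204). Axin1, a scaffold of the β-catenin destruction complex with an RGS domain, was then at -0.52 (edgeR adjusted p = 0.00033), and Adrbk1, which encodes GRK2, at -0.37 (edgeR adjusted p = 0.0014). Grk6 was at -0.28 (edgeR adjusted p = 0.00873) and Plcb3 at -0.28 (edgeR adjusted p = 0.0246). These genes were chosen after their values were seen.

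Calls also appeared without other samples. Rgs11, an R7 gene with 17, 24 and 38 counts in 393P_vector and 5, 4 and 18 in 393P_ZEB1, was at -1.31 (edgeR adjusted p = 0.0774) with all samples and at -2.21 (edgeR adjusted p = 0.0125) without 393P_ZEB1 replicate 3. Rgs7bp, a membrane anchor of R7 proteins, had 10, 3 and 4 counts against 16, 19 and 10, and was at 1.58 (edgeR adjusted p = 0.0613) with all samples and at 2.39 (edgeR adjusted p = 0.0173) without 393P_vector replicate 1.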
